A study of Mus musculus with 6 samples.

Results

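Gja1 (ENSMUSG00000050953), the mouse gene for connexin 43, was 1 gene of 34187 in the count matrices, and it was chosen on measured values of these same cells. Its levels, its differences between treatments and its co-detection with other genes are therefore described with their spread and were not tested. Tests were run only on other genes, and the gene lists were chosen with earlier results of these data known. The question followed here was which cells of the tumors held Gja1 transcripts, how much of them macrophages held under each treatment, and which macrophages those were.

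Connexins are membrane proteins that assemble into hemichannels, and hemichannels of adjoining cells dock to form gap junctions through which ions and small molecules pass. Connexin 43 is the most widely expressed connexin and is well known in heart muscle, astrocytes, fibroblasts and blood vessel walls. Unpaired hemichannels, like the related pannexin channels, can release ATP, which purinergic receptors on macrophages sense and ectoenzymes degrade to adenosine.

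The cells came from subcutaneous tumors of 6694c2vTRP1, a line of the KPC model of pancreatic ductal adenocarcinoma, grown in male and female C57BL/6 mice. From day 8 the mice were given 2 intraperitoneal injections, on alternate days, of PBS, of mono-IL10 (26 µg per mouse), an interleukin-10 protein, or of IL10/2-Trikine (30.6 µg per mouse), a synthetic cytokine that engages receptor chains of IL-10 and IL-2, and tumors were taken on day 14. CD45+ cells were enriched on beads, cells of 5 mice per treatment were marked with 5 hashtag antibodies and pooled, and each treatment gave a single 5′ single-cell library. Treatment and library therefore cannot be told apart, the 5 mice of a treatment share a library, and both treated groups were set against the same 5 PBS mice.

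The libraries held 44412 (PBS), 30528 (mono-IL10) and 55504 (IL10/2-Trikine) barcodes, and 34518, 24060 and 46104 of them passed the filters (at least 1000 genes and at most 10% mitochondrial UMIs). Median UMIs (unique molecular identifiers, counted transcript molecules) per passing barcode were 9474, 11643.5 and 6399, so the IL10/2-Trikine library was the shallowest. Between 408 and 700 barcode sequences were shared by a pair of libraries. After barcodes with more than 1 hashtag were left out, 92485 cells were grouped into 60 clusters without using any connexin or pannexin gene, and a cluster was given the name of a cell class followed by "-like" from fixed markers. Although the cells were enriched for CD45, the tumor epithelial-like class held 11132 (PBS), 8045 (mono-IL10) and 22868 (IL10/2-Trikine) cells. Macrophage or monocyte-like cells, called macrophages from here on, numbered 9276, 6577 and 5961, and all 10 macrophage markers were detected in them, at a summed level of 10422 to 14610 CPM in every mouse, where CPM is the number of UMIs of a gene in 1000000 UMIs of all genes.

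Gja1 was highest in endothelial-like cells under every treatment, at 575 ± 60.02 CPM (mean ± SD, n = 5 mice) in PBS. In PBS tumors the next levels were those of fibroblast-like cells (101 ± 15.8), tumor epithelial-like cells (61.9 ± 4.403) and pericyte or smooth muscle-like cells (53.4 ± 14.1, n = 3), while macrophages (11.4 ± 4.45) and dendritic cell-like cells (8.87 ± 7.02) were far lower. The ranges over mice did not overlap between endothelial-like and fibroblast-like cells, between fibroblast-like and tumor cells, or between pericyte-like cells and macrophages. They did overlap between tumor and pericyte-like cells and from macrophages down to neutrophil-like cells.

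Under mono-IL10, macrophages came second in this order at 124 ± 19.3 CPM, with a range that overlapped that of fibroblast-like cells (120.1 ± 37.8). Under IL10/2-Trikine they followed fibroblast-like cells, at 99.4 ± 50.2 CPM. Their range there overlapped those of fibroblast-like (103 ± 34.8), pericyte-like (57.3 ± 18.2, n = 4) and tumor epithelial-like cells (57.2 ± 10.9). It also overlapped the ranges of regulatory T cell-like and dendritic cell-like cells. The background was read from the T and NK cells of the deposited annotation, although some expression of the gene in lymphocytes is possible. Among them a Gja1 UMI was found in 3 of 516 (PBS), 14 of 843 (mono-IL10) and 4 of 725 cells (IL10/2-Trikine), or 0.581%, 1.66% and 0.552%, at median depths of 2780, 3959 and 2635 UMIs.

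**Figure D1:**
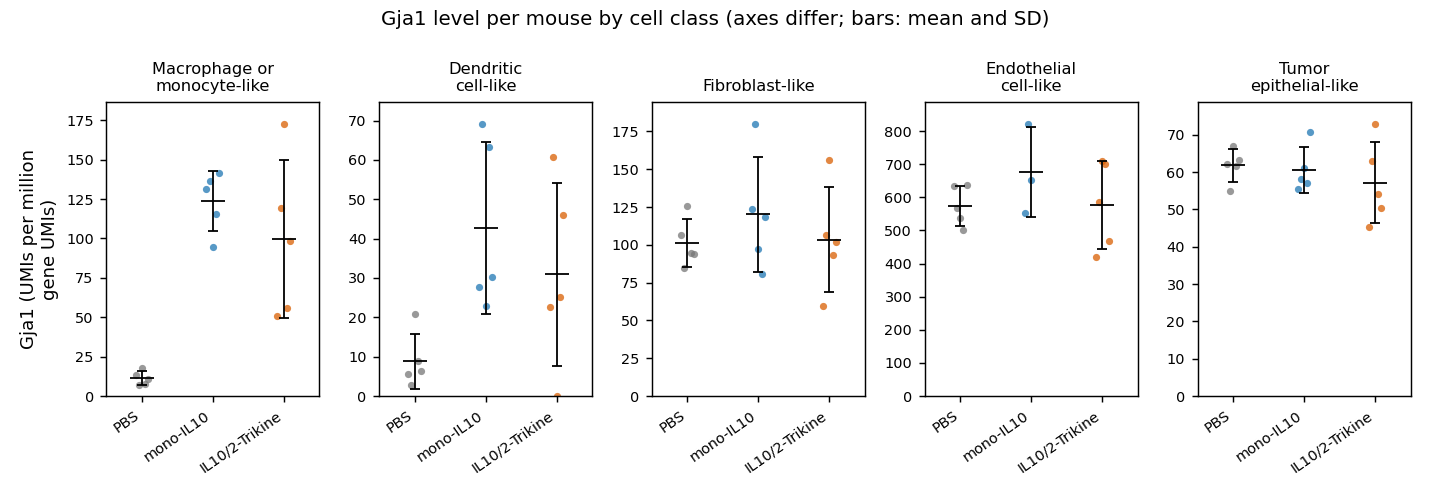
Gja1 level in CPM (vertical axes, which differ between panels) for each mouse, by treatment, in 5 cell classes; points are mice, and bars give the mean and SD. The macrophage panel shows all PBS mice at or under 17.8 and all treated mice at or over 50.8, whereas the fibroblast, endothelial and tumor panels show overlapping groups.

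In macrophages, Gja1 stood at 13.6, 7.01, 17.8, 7.81 and 10.6 CPM in PBS mice 1 to 5. In mono-IL10 mice 1 to 5 it stood at 131, 137, 94.3, 115 and 142 CPM. IL10/2-Trikine mice 1 to 5 had 50.8, 119.6, 173, 55.8 and 98.1 CPM. Every treated mouse lay above every PBS mouse, and the treated groups overlapped, with IL10/2-Trikine mice on both sides of the mono-IL10 range.

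The mean was 10.9-fold higher under mono-IL10 than under PBS (log2 ratio 3.44) and 8.73-fold higher under IL10/2-Trikine (3.13), and IL10/2-Trikine stood at 0.803 of mono-IL10 (−0.32). With 1 mouse left out at a time, these folds ranged from 9.92 to 12.7, from 7.12 to 10.2 and from 0.655 to 0.901. A negative binomial fit of the counts summed per mouse (edgeR, given as a description) put the log2 fold changes at 3.58 ± 0.27 (SE), 3.06 ± 0.29 and −0.51 ± 0.24.

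A Gja1 UMI was seen in 407 of 9276 macrophages of the PBS library (4.39%, 95% exact binomial interval 3.98 to 4.82), in 2227 of 6577 under mono-IL10 (33.9%, 32.7 to 35.02) and in 944 of 5961 under IL10/2-Trikine (15.8%, 14.9 to 16.8). These intervals, like all others given, cover counting error only. Macrophage depth differed between the libraries, with medians of 4993, 6194 and 2790 UMIs. Per mouse the shares were 4.53 ± 1.27% (PBS), 33.9 ± 2.79% (mono-IL10) and 18.0 ± 4.96% (IL10/2-Trikine). When every macrophage was thinned to 1500 UMIs, which left out 11 of 21814 cells, the shares were 1.54 ± 0.56%, 15.0 ± 1.82% and 11.8 ± 4.72%. Thinning to 3000 UMIs left out 1840, 788 and 3409 macrophages and gave 2.68%, 23.4% and 14.9%. The distance between the treated groups was thus smaller at equal depth, and both treated groups stayed far from PBS.

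**Figure D2:**
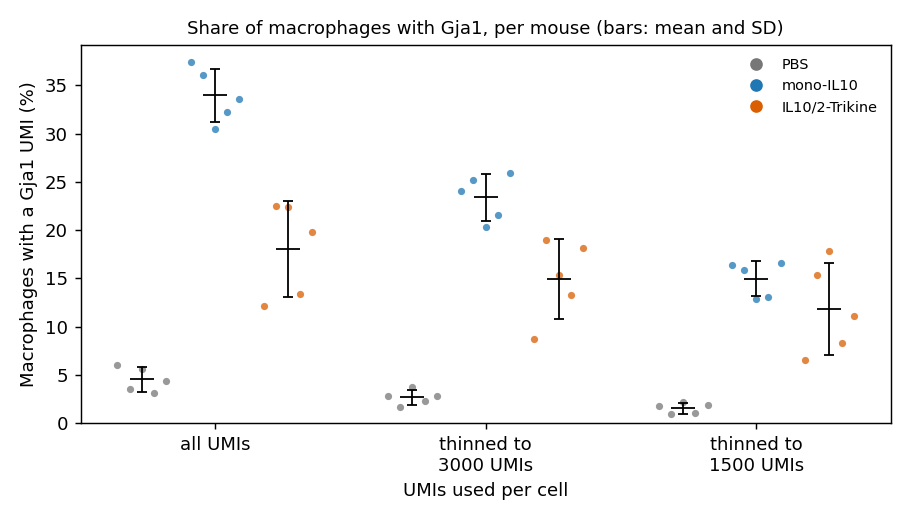
Percentage of macrophages with at least 1 Gja1 UMI (vertical axis) at 3 depths per cell (horizontal axis), 1 point per mouse, with bars for the mean and SD. At 1500 UMIs per cell the means were 1.54% (PBS), 15.0% (mono-IL10) and 11.8% (IL10/2-Trikine).

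Most positive cells held few molecules. Of the positive PBS macrophages, 301 held 1 UMI, 98 held 2 to 4 and 8 held 5 or more, and the highest cell held 16. Under mono-IL10 the counts were 1063 with 1 UMI, 871 with 2 to 4, 230 with 5 to 9 and 63 with 10 or more, up to 28 UMIs in a cell. Under IL10/2-Trikine 617 cells held 1 UMI, 302 held 2 to 4, 22 held 5 to 9 and 3 held 10 or more, up to 13.

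Macrophages held 2.30% of all Gja1 UMIs of the clustered cells in the PBS library, 17.8% in the mono-IL10 library and 7.66% in the IL10/2-Trikine library, while making up 30.4%, 29.9% and 14.9% of its cells. Tumor epithelial-like cells held 65.4%, 52.9% and 61.2% of those UMIs, and endothelial-like cells 15.1%, 6.46% and 9.43%.

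Because tumor and endothelial cells carry the gene, their transcripts inside macrophage barcodes were measured. In macrophages, the 8 tumor epithelial markers were all detected except Cldn7 under IL10/2-Trikine, and their sum per mouse ranged from 63.1 to 171 CPM in PBS, from 42.2 to 98.7 under mono-IL10 and from 111 to 187 under IL10/2-Trikine. From here on, only the UMIs of Epcam, Krt8, Krt18, Krt19 and Krt7 are counted as tumor marker UMIs. Tumor cells held 77.5, 79.2 and 71.2 of these marker UMIs per Gja1 UMI in the 3 libraries, while macrophages held 10.9, 0.446 and 1.71. At the ratio of the tumor cells, those marker UMIs would come with 84 of the 598 macrophage Gja1 UMIs in PBS (14.1%), 32 of 5668 under mono-IL10 (0.563%) and 36 of 1521 under IL10/2-Trikine (2.40%). With macrophages of 2 or more tumor marker UMIs left out, the log2 ratios to PBS were 3.69 under mono-IL10 and 3.37 under IL10/2-Trikine. UMIs of Cdh5, Cldn5 and Emcn, which mark endothelium, numbered 0.104, 0.0115 and 0.0217 per Gja1 UMI in macrophages against 3.63, 3.33 and 3.78 in endothelial-like cells.

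Fibroblast-like, endothelial-like and tumor epithelial-like cells overlapped between all treatments. In fibroblast-like cells, Gja1 stood at 107, 84.6, 126, 94.4 and 94.0 CPM in the PBS mice, at 124, 180.2, 97.1, 80.6 and 119 in the mono-IL10 mice, and at 59.3, 106, 156, 93.4 and 102 in the IL10/2-Trikine mice. Endothelial-like cells had 633, 566, 536, 499.9 and 637 CPM in PBS, 553, 822 and 652.5 in the 3 mono-IL10 mice with at least 20 such cells (mice 1, 2 and 5), and 420.2, 586, 709, 702 and 468 under IL10/2-Trikine. Mean levels there were 1.18-fold (mono-IL10) and 1.004-fold (IL10/2-Trikine) those of PBS.

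Tumor epithelial-like cells had 62.1, 54.9, 67.1, 61.8 and 63.4 CPM in PBS, 55.5, 58.2, 61.0, 57.2 and 70.9 under mono-IL10, and 45.4, 62.9, 73.0, 54.3 and 50.5 under IL10/2-Trikine, with all 3 groups overlapping. The share of tumor cells with a UMI was 58.2%, 65.7% and 33.5% by library, but median depths were 19627, 28382 and 8434 UMIs, and at 3000 UMIs per cell the shares were 16.6%, 16.4% and 14.4%. Likewise, unthinned shares of 92.9%, 93.7% and 86.7% in endothelial-like cells became 71.6%, 75.9% and 74.5%. In fibroblast-like cells 53.6%, 66.8% and 36.3% became 19.5%, 28.0% and 22.3%, so mono-IL10 stayed above PBS by library. Their ranges over mice at that depth overlapped (14.9% to 22.7% in PBS and 20.3% to 37.9% under mono-IL10).

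Dendritic cell-like cells, the antigen-presenting class that includes conventional and mature dendritic cells, had 5.47, 2.73, 20.8, 8.86 and 6.48 CPM in PBS and 27.8, 69.2, 22.8, 63.2 and 30.3 under mono-IL10. IL10/2-Trikine mice had 22.6, 60.7, 0, 25.2 and 46.1 CPM, and mouse 3, at 0, contributed 28 cells. Every mono-IL10 mouse lay above every PBS mouse, and 4 of 5 IL10/2-Trikine mice did. Means were 4.81-fold (mono-IL10) and 3.49-fold (IL10/2-Trikine) that of PBS, and without PBS mouse 3 they were 7.25-fold and 5.25-fold. With 40 clusters in place of 60 the mono-IL10 mean was 9.47-fold that of PBS. There a cluster of 997 cells led by Ccl17 and Cd209a stayed unnamed, so the class held a different set of cells. The share with a UMI was 38 of 895 cells (4.25%), 58 of 486 (11.9%) and 35 of 451 (7.76%), at median depths of 7396, 9685.5 and 3707 UMIs. Thinned to 3000 UMIs, which left out 156 of the 451 IL10/2-Trikine cells, the shares were 1.45%, 4.50% and 6.10%, and thinned to 1500 UMIs the means over mice were 0.759 ± 0.76%, 4.68 ± 2.75% and 2.89 ± 3.42%. No order of the treated groups is read from these shares.

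Macrophage transcripts were present in these dendritic cell-like barcodes. Their summed C1qa, C1qb and C1qc, the complement chains typical of macrophages, stood at 1436, 1649 and 1943 CPM, or 22.9%, 22.2% and 26.6% of the macrophage level. At the Gja1-to-C1q ratio of the macrophages, that much C1q would come with 2.48 of the 7.68 Gja1 CPM of the PBS library, 27.2 of 36.7 under mono-IL10 and 20.9 of 25.9 under IL10/2-Trikine. Tumor marker UMIs at the tumor cells' ratio would come with 48.8%, 5.56% and 13.9% of the dendritic cell-like Gja1 UMIs. How much of the signal the dendritic cells themselves made was not tested.

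The macrophages fell into 13 clusters, and Gja1 was not spread evenly over them. The highest level in every library was in cluster 16, led by Cd163, the hemoglobin-haptoglobin scavenger receptor, Cbr2, Fcna, Ccl8 and Folr2, the folate receptor of tissue-resident-type macrophages. It held 62.9 CPM in PBS, 339.8 under mono-IL10 and 238 under IL10/2-Trikine. Cluster 2, led by Nrg1, Tmem26, Zdhhc14, Pf4 and F13a1, followed with 21.4, 205 and 165 CPM, and cluster 28, with Pf4, Fcrls, Lgmn and the mannose receptor Mrc1 among its leading genes, held 15.9, 183 and 113 CPM.

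At the other end over the 3 libraries together, cluster 40, led by Ear2, Dcstamp, the lectin Mgl2 and Ccl17, held 4.90, 4.17 and 3.99 CPM. In PBS alone, clusters 38, 24 and 9 were lower, at 4.62, 4.35 and 3.90 CPM. Cluster 59, led by Gpnmb and Mmp12, held 10.7, 18.9 and 22.5 CPM. Cluster 24, led by Cxcl9 and by Cd74, H2-Aa, H2-Eb1 and H2-Ab1 of the MHC class II pathway, held 4.35, 30.3 and 30.6 CPM. Between these ends lay cluster 32, led by the fractalkine receptor Cx3cr1, with 12.8, 64.5 and 44.4 CPM. Cluster 11, led by Ccl24 and the arginase gene Arg1, also lay between them, with 10.8, 117 and 63.7 CPM.

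**Figure D3:**
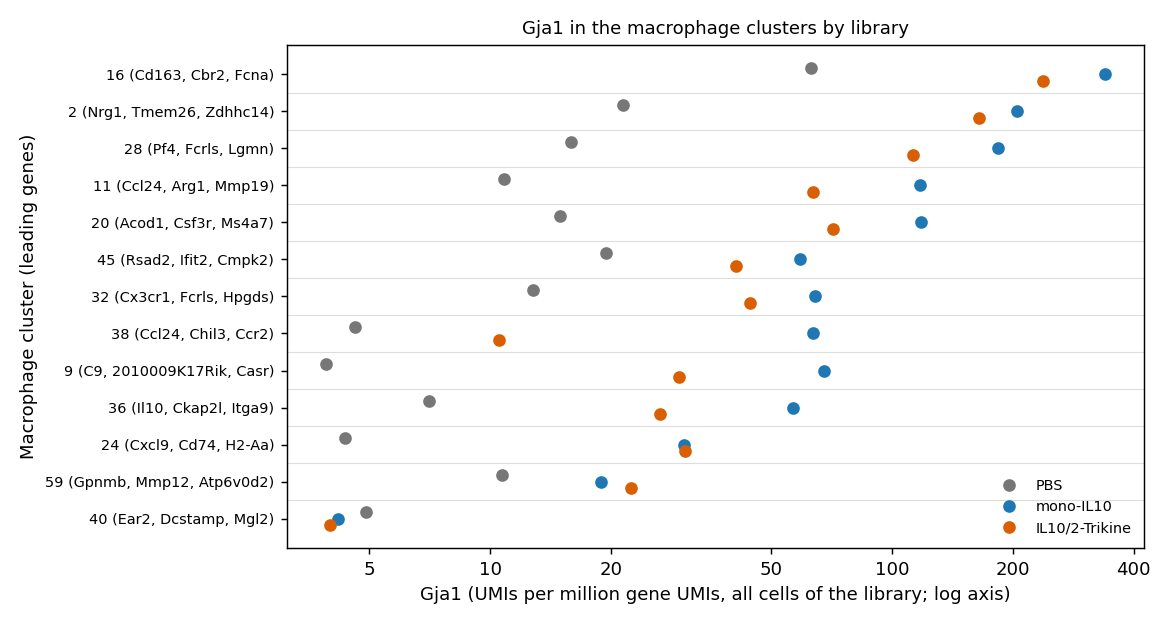
Gja1 level in CPM (horizontal log axis) in each of the 13 macrophage clusters (rows, named by leading genes), with a point per library over all its cells. The Cd163 cluster lies farthest right in each library, and the Ear2, Dcstamp and Mgl2 cluster is at 3.99 to 4.90 in all of them.

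The library level was above PBS in 12 of 13 clusters under mono-IL10 and in 12 of 13 under IL10/2-Trikine, with cluster 40 the exception in both, and mono-IL10 was above IL10/2-Trikine in 11 of 13. By mouse, among mice with at least 20 cells of a cluster, each mono-IL10 mouse exceeded each PBS mouse in 11 clusters, all but 40 and 59, with 4 mono-IL10 mice in cluster 9, 3 in cluster 45, 4 PBS mice in clusters 16 and 45, and 5 mice otherwise. Each IL10/2-Trikine mouse measured did so in clusters 24 and 28 (5 mice) and in clusters 2, 20 and 32 (4 mice). Cluster 36 had no IL10/2-Trikine mouse with enough cells, and clusters 9 and 45 had 2 each. In cluster 16 the 4 PBS mice with enough cells (mice 1, 2, 3 and 5) had 41.8, 44.3, 154 and 34.2 CPM, the mono-IL10 mice 379, 362, 249.5, 341 and 319, and the IL10/2-Trikine mice 149, 323, 590.2, 222 and 231.

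Cluster 38, led by Ccl24, Chil3 and the monocyte receptor gene Ccr2, was a cluster where the treated groups were apart. It held 62.8, 120.0, 48.1, 79.4 and 53.5 CPM in the mono-IL10 mice, 21.7, 14.5, 0, 0 and 0 in the IL10/2-Trikine mice, and 3.39, 3.88, 7.06, 2.05 and 0 in the PBS mice. The whole mono-IL10 range lay above those of both other groups there. By library, cluster 38 held 159 Gja1 UMIs in 452 mono-IL10 cells, 10 in 312 IL10/2-Trikine cells and 15 in 834 PBS cells. The values of 0 thus rest on few UMIs and do not show absence. Cluster 9, led by C9 and Casr, was also apart, at 59.6 to 84.9 CPM in 4 mono-IL10 mice and 5.47 and 42.8 CPM in the 2 IL10/2-Trikine mice with enough cells. Its IL10/2-Trikine level rests on 15 Gja1 UMIs in 128 cells of the library.

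Cluster 16 made up 2.84 ± 1.28% of a mouse's macrophages in PBS, 7.72 ± 2.66% under mono-IL10 and 8.60 ± 3.19% under IL10/2-Trikine. To set the mix of clusters beside the level within them, shares of a library were combined with the cluster levels of the same or another library. The shares used here are those of each cluster in the macrophage UMIs of a library, not in its cells. PBS shares with PBS levels gave 10.8 CPM. PBS shares with mono-IL10 levels gave 73.4 CPM and with IL10/2-Trikine levels 45.6 CPM, whereas PBS levels with either mono-IL10 or IL10/2-Trikine shares gave 15.9 CPM. Their own shares and levels gave 123 CPM (mono-IL10) and 78.6 CPM (IL10/2-Trikine). The clusters were drawn from all other variable genes, many of which also differed with treatment.

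Macrophages with a Cd163 UMI held more Gja1 than those without in every mouse with at least 20 such cells. The levels with and without Cd163 were 305 ± 40.9 and 95.7 ± 12.5 CPM under mono-IL10 (ratio of means 3.19, higher in 5 of 5 mice) and 247 ± 134 and 80.1 ± 35.1 CPM under IL10/2-Trikine (3.09, 5 of 5). Among IL10/2-Trikine macrophages with at least 2000 genes, that ratio was 1.92. In PBS they were 47.3 ± 44.8 and 10.5 ± 3.05 CPM (4.52, 4 of 4 mice), where mouse 3 stood at 114 CPM among Cd163-positive cells, and without it the ratio was 2.61. Among Cd163-positive macrophages, 18.0% (PBS), 64.1% (mono-IL10) and 39.4% (IL10/2-Trikine) had a Gja1 UMI, averaged over mice, against 4.37%, 29.3% and 15.4% of Cd163-negative ones.

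Folr2 went with Gja1 in the same direction. Levels with and without Folr2 were 23.4 ± 12.2 and 7.001 ± 1.43 CPM in PBS, 170.4 ± 32.7 and 85.2 ± 12.96 under mono-IL10, and 159 ± 73.6 and 72.6 ± 38.2 under IL10/2-Trikine, with ratios of 3.34, 2.00 and 2.19, each higher in 5 of 5 mice. Macrophages with UMIs of both Cd163 and Folr2 had 53.4 CPM (PBS, 4 mice), 308 (mono-IL10, 5 mice) and 285 (IL10/2-Trikine, 4 mice), and without PBS mouse 3, at 135.5 CPM, the PBS mean was 26.1. Macrophages with no UMI of Cd163, Folr2, Cx3cr1 or Arg1 still had 5.104, 33.1 and 62.1 CPM. Thinned to 3000 UMIs such cells had 4.70, 54.1 and 9.26 CPM, the last from 135 cells of 2 mice, where the 5 unthinned IL10/2-Trikine mice ranged from 5.12 to 100.7 CPM. No order of the treated groups is read from these cells.

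Cx3cr1 went the other way under mono-IL10, where cells with it had 80.2 ± 28.1 CPM and cells without it 142 ± 19.3 (ratio 0.564, higher in 0 of 5 mice). The ratio was 0.693 under IL10/2-Trikine (71.9 ± 30.5 against 104 ± 52.0 CPM, higher in 1 of 5), but 1.003 among cells with at least 2000 genes, so that no direction held there. In PBS it was 0.884 (10.7 ± 6.70 against 12.1 ± 3.09, higher in 2 of 5), and without PBS mouse 5 it was 1.04, so PBS gave no direction.

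For Arg1, the ratio was 1.48 under mono-IL10 (127 ± 18.4 against 85.4 ± 40.9 CPM, higher in 5 of 5), 1.23 in PBS (3 of 5) and 0.945 under IL10/2-Trikine (1 of 5), where it was 0.512 among cells with at least 2000 genes. Arg1 was detected in 73.3% (PBS), 91.7% (mono-IL10) and 81.6% (IL10/2-Trikine) of macrophages, so cells without it were the minority in each library. Since a deep cell is more likely to show both genes, the ratios were repeated with each cell thinned to 3000 UMIs. For Cd163 they were then 3.97 (PBS), 3.19 (mono-IL10) and 3.44 (IL10/2-Trikine, 3 mice), for Folr2 3.39, 2.00 and 3.23, for Cx3cr1 0.998, 0.550 (higher in 1 of 5 mice) and 0.827, and for Arg1 1.54 (5 of 5 mice), 1.81 (5 of 5) and 1.46 (4 of 4). The direction for Arg1 under IL10/2-Trikine thus turned with thinning.

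**Figure D4:**
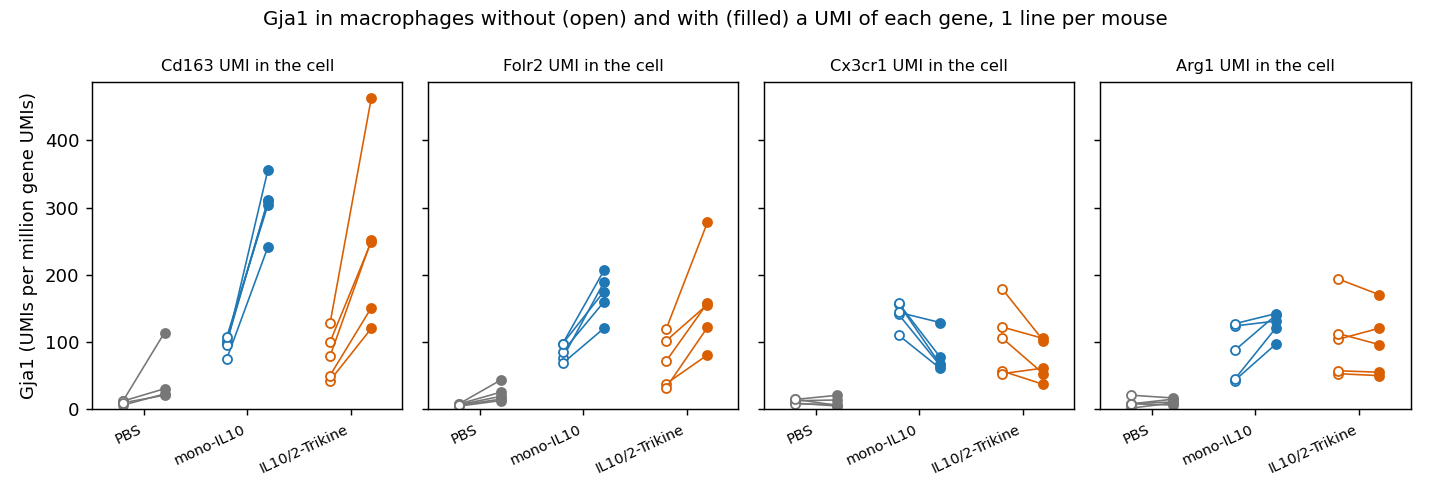
Gja1 level in CPM (vertical axis) in macrophages without (open) and with (filled) a UMI of Cd163, Folr2, Cx3cr1 or Arg1, with a line per mouse joining its values. Lines climb in every mouse drawn for Cd163 and Folr2, descend in all mono-IL10 mice for Cx3cr1, and run in both directions for Arg1 in PBS and under IL10/2-Trikine, at each cell's full depth.

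Set against Gja1-negative macrophages of the same mouse, Gja1-positive ones differed in the same direction in all 15 mice for 291 of 5881 genes of at least 20 CPM, 131 of which were higher. Among these 291 genes, the highest mean log2 ratios were those of Cd163 (2.26 ± 0.78, SD over 15 mice), Tm4sf1 (2.06), Clu (1.76), Nedd4 (1.76) and Cbr2 (1.53). The lowest were those of Ear2 (−1.81), the class II genes H2-Eb1 (−1.41), H2-Aa (−1.37) and H2-Ab1 (−1.34), and Dcstamp (−1.30). Ccl17, which was higher in 2 of 15 mice and so is not among them, had a mean of −2.22.

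Tumor transcripts accompanied some of these differences. The keratins Krt8, Krt18 and Krt19 had mean ratios of 1.91, 1.90 and 1.84 and were higher in 14 of 15 mice. With cells of 2 or more tumor marker UMIs left out, the Cd163 ratio was 2.40 (PBS), 2.54 (mono-IL10) and 2.44 (IL10/2-Trikine), that of Cbr2 1.69, 1.67 and 1.68, that of Folr2 1.39, 1.01 and 1.02, and that of Mrc1 0.81, 0.75 and 0.71. H2-Aa stood at −1.12, −1.62 and −1.46 and Ear2 at −3.13, −2.18 and −1.63. In contrast, Tm4sf1 then stood at 0.80, −0.30 and 0.18, Clu at −0.04, −0.19 and 0.49 and Nedd4 at 0.32, 0.09 and 0.56. The higher Cd163, Cbr2, Folr2 and Mrc1 and the lower class II transcripts of Gja1-positive macrophages were thus also present among cells with little tumor RNA, in each treatment.

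The other connexins described here were mostly genes of other cells, and Gja10, Gjb6 and Gjd2 had 0 UMIs. Gjb1, of the epithelial beta family, was highest in tumor epithelial-like cells, with macrophages at 2.43% of that level. Gjc1 (connexin 45) was highest in pericyte or smooth muscle-like cells, where macrophages held 0.16% of its level, and the vascular Gja4 and Gja5 were also highest there, with endothelial-like cells at 43.8% and 43.9%. Gjb5 was highest in fibroblast-like cells, with tumor cells at 66.3%, and of the 1731 Gjb2 UMIs 1485 were in tumor epithelial-like cells, while its higher levels in NK cell-like and regulatory T cell-like cells rest on 23 and 9 UMIs. Macrophages held 1.85% (PBS), 18.2% (mono-IL10) and 13.05% (IL10/2-Trikine) of the endothelial level of Gja1, or 10.6% over the 3 libraries. Panx1, the main pannexin of immune cells, was highest in T cell-like cells, with macrophages at 25.5%.

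**Figure D5:**
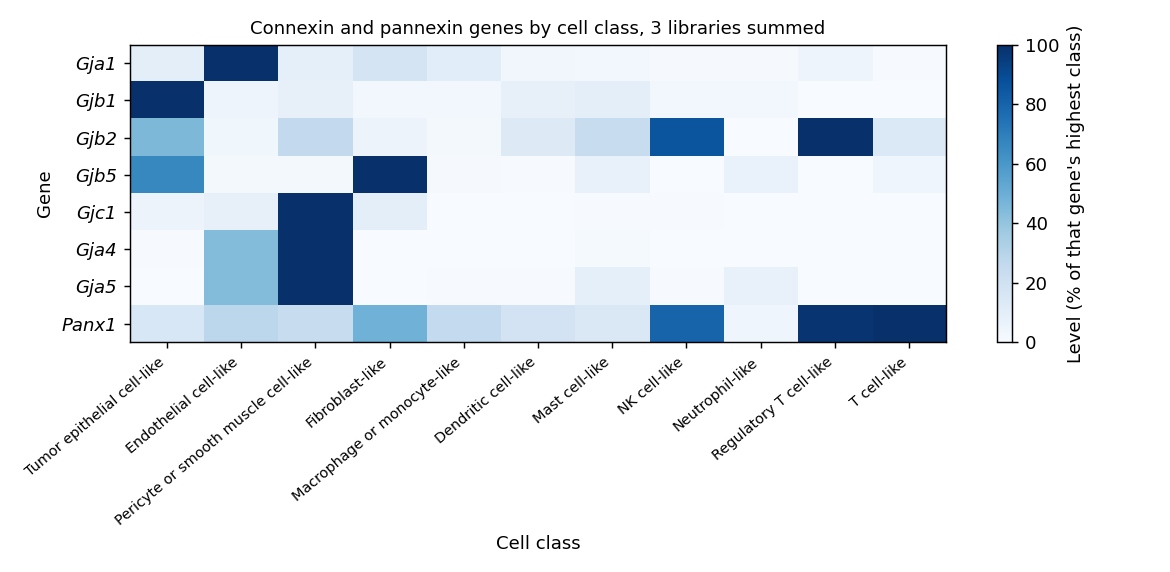
Connexin and pannexin genes (rows) by cell class (columns), with the 3 libraries summed; color gives the level as a percentage of that gene's highest class, so that rows are not compared with each other. For Gja1 macrophages reach 10.6% of the endothelial-like level (1.85% in the PBS library and 18.2% under mono-IL10), and for Gjb1 2.43% of the tumor level.

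Over 30 combinations of class and library with at least 50 cells, the profiles most like that of Gja1 among 10716 genes were those of Plscr3 (Pearson r of log2(CPM + 1) 0.90), Cpne8 (0.89), the chemokine scavenger receptor gene Ackr3 (0.89), Ppfibp1 (0.88) and Smad1 (0.87). The points share 3 libraries and their depths, and the values are descriptions.

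In macrophages, edgeR's quasi-likelihood test with Benjamini-Hochberg adjustment over 12609 genes called 16.8% of genes between IL10/2-Trikine and PBS, 29.8% between mono-IL10 and PBS and 16.1% between IL10/2-Trikine and mono-IL10. Panx1 stood at 10.6 ± 1.19 (PBS), 11.6 ± 1.99 (mono-IL10) and 12.97 ± 2.07 CPM (IL10/2-Trikine) and was called in 0 comparisons by either tool, with 1 unadjusted p under 0.05, for IL10/2-Trikine against PBS (adjusted p = 0.0756).

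Partners of connexin 43 at the membrane and in its turnover were tested for 14 of 15 genes. Of these, 3 were called between IL10/2-Trikine and PBS (1 higher, 2 lower), 7 between mono-IL10 and PBS (1 higher, 6 lower) and 2 between IL10/2-Trikine and mono-IL10 (both higher). Ctnnb1, the gene of beta-catenin, rose under IL10/2-Trikine (0.47 ± 0.08, adjusted p = 0.000303) and under mono-IL10 (0.34 ± 0.08, adjusted p = 0.00232). Tubb5, a tubulin gene, fell under mono-IL10 (−0.70 ± 0.11, adjusted p = 0.000132) and was also called lower under IL10/2-Trikine. Nedd4, a ubiquitin ligase that acts on connexin 43, and Cdh2, N-cadherin, were higher under IL10/2-Trikine than under mono-IL10 by 1.59 ± 0.26 and 2.20 ± 0.37 (adjusted p = 0.00046 and 0.000571). The list's median log2 fold changes were 0.09, −0.17 and 0.30, against −0.0004 to 0.01 for all genes. Tumor epithelial-like cells hold Nedd4 at 711 CPM and Cdh2 at 91.3 CPM. In macrophages Nedd4 stood at 26.7 (PBS), 10.6 (mono-IL10) and 34.3 CPM (IL10/2-Trikine) and Cdh2 at 2.91, 0.996 and 4.75 CPM by library. The tumor marker UMIs were in the same order, at 118, 54.8 and 134 CPM. Without macrophages of 2 or more tumor marker UMIs, Nedd4 was higher under IL10/2-Trikine than under mono-IL10 (log2 1.41, adjusted p = 0.000231). Cdh2 then had too few counts to be tested. This filter did not even out tumor RNA between the libraries. In the Gja1-negative macrophages that it kept, mean Krt8 was 17.6 CPM under IL10/2-Trikine and 7.67 CPM under mono-IL10. Krt18 stood at 10.2 and 5.47 CPM there, and Krt19 at 6.01 and 3.73 CPM. The part of tumor RNA in the remaining Nedd4 difference was not tested. In the fit with this filter, the list's calls were 4 (2 higher, 2 lower), 7 (3 higher, 4 lower) and 2 (1 higher, 1 lower) of 13, with medians of −0.006, 0.06 and 0.11. The share of all genes called in that fit is not given here, so these counts are not read as a result about the list.

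Of the 11 genes of extracellular ATP and adenosine, all tested, 4 were called between IL10/2-Trikine and PBS (all lower), 7 between mono-IL10 and PBS (5 higher, 2 lower) and 4 between IL10/2-Trikine and mono-IL10 (all lower). Entpd1 (CD39), which degrades extracellular ATP and ADP, fell from 323 ± 26.4 CPM in PBS to 241 ± 5.23 under mono-IL10 and 207 ± 8.66 under IL10/2-Trikine, and each pair of groups differed (adjusted p = 0.000653 for mono-IL10 and 1.62e-06 for IL10/2-Trikine against PBS, and 0.00165 between them). Adora2b, an adenosine receptor gene, went in opposite directions, at 28.4 ± 2.87 CPM in PBS, 38.8 ± 4.70 under mono-IL10 and 20.7 ± 2.26 under IL10/2-Trikine (log2 0.55 ± 0.09 and −0.50 ± 0.12 against PBS, adjusted p = 0.000201 and 0.00523, and −1.05 ± 0.11 between the treatments, adjusted p = 1.41e-05). Nt5e (CD73), which makes adenosine from AMP, was lower under IL10/2-Trikine than under mono-IL10 (104 ± 9.34 against 149 ± 27.2 CPM, adjusted p = 0.00347), and so was P2rx7, an ATP-gated channel gene (87.3 ± 11.4 against 107 ± 10.3, adjusted p = 0.00755). The list's median log2 fold changes were −0.09, 0.25 and −0.33.

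Among 15 tested macrophage genes, 9 were called between IL10/2-Trikine and PBS (6 higher, 3 lower), 11 between mono-IL10 and PBS (7 higher, 4 lower) and 2 between IL10/2-Trikine and mono-IL10. This list was chosen with earlier results of these data known, and it holds the genes of the co-detection plot. Its calls therefore describe these cells and are not separate support for the co-detection. Cd163 and Folr2, which accompanied Gja1 within a mouse, also rose with both treatments. Cd163 stood at 17.8 ± 9.56 CPM in PBS, 118 ± 55.9 under mono-IL10 and 129 ± 55.0 under IL10/2-Trikine (log2 2.83 ± 0.37 and 2.83 ± 0.39, adjusted p = 1.71e-05 and 5.76e-05). Folr2 stood at 79.4 ± 21.8, 167 ± 25.03 and 154 ± 37.7 CPM (1.18 ± 0.17 and 0.94 ± 0.17, adjusted p = 3.24e-05 and 0.000923). Cx3cr1 fell under mono-IL10 (−1.51 ± 0.24, adjusted p = 0.000126), and Mgl2 fell under both treatments (−1.81 ± 0.24 and −1.30 ± 0.25, adjusted p = 1.68e-05 and 0.00117). Between IL10/2-Trikine and mono-IL10 the called genes were Vegfa (−0.44 ± 0.09, adjusted p = 0.00245) and Ly6c2 (1.29 ± 0.35, adjusted p = 0.0161), while Cd163 differed by 0.00 ± 0.35 (adjusted p = 0.999). The Ly6c2 call was lost with 40 clusters and without IL10/2-Trikine mouse 1 (1.079 and 1.23).

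In dendritic cell-like cells, 1.0% (IL10/2-Trikine against PBS), 2.60% (mono-IL10 against PBS) and 1.0% (IL10/2-Trikine against mono-IL10) of 7491 tested genes were called, and 0 of the listed connexins and pannexins besides Gja1 had enough counts to be tested. Of 10 partners tested, edgeR and DESeq2 called 0 in each comparison, with 0, 2 and 2 at an unadjusted p under 0.05. Of 8 purine genes, 1, 3 and 0 were called, the last with 3 at an unadjusted p under 0.05 and 0 by DESeq2. Entpd1 fell under both treatments there too (−0.75 ± 0.16 under IL10/2-Trikine and −0.58 ± 0.14 under mono-IL10, adjusted p = 0.0319 and 0.025), whereas Nt5e and Adora2b rose under mono-IL10 (0.71 ± 0.19 and 0.89 ± 0.24, adjusted p = 0.0477 and 0.0492). Of 13 macrophage genes, 0, 2 (Arg1 higher, Cx3cr1 lower) and 0 were called by edgeR, with 2 at an unadjusted p under 0.05 in each of the comparisons with 0 and 1 called by DESeq2 in each. The calls of Nt5e, Adora2b and Cx3cr1 were lost under 12, 12 and 13 alternatives, most of them with 1 mouse left out, with the log2 change of Nt5e between 0.61 and 0.76 and that of Adora2b between 0.78 and 0.97 where lost. The calls of Entpd1 were lost under 9 (IL10/2-Trikine, −0.94 to −0.65) and 4 (mono-IL10, −0.57 to −0.48), and that of Arg1 under 1. The change of Cx3cr1 lay between −1.70 and −1.28 where its call was lost. Macrophage RNA was present in these barcodes, with C1q at 22.2% to 26.6% of the macrophage level as given above, and its part in these differences was not tested.

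In tumor epithelial-like cells, 22.0% (IL10/2-Trikine against PBS), 7.08% (mono-IL10 against PBS) and 32.7% (IL10/2-Trikine against mono-IL10) of 15100 tested genes were called. Gjb5, a beta-family connexin gene, was lower there under IL10/2-Trikine than under mono-IL10 (−0.49 ± 0.11, adjusted p = 0.00322). The tumor cells of the IL10/2-Trikine library were also the shallowest.

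In the same tumor cells, 4, 0 and 7 of 15 partners were called, the comparison of mono-IL10 with PBS having 1 at an unadjusted p under 0.05 and 0 by DESeq2. Ctnnb1 was higher under IL10/2-Trikine than under PBS (0.16 ± 0.04, adjusted p = 0.0074). Of the 11 purine genes, 2 were called in each comparison, and Nt5e was lower than in PBS under both treatments (79.2 ± 6.51 CPM under IL10/2-Trikine and 75.4 ± 3.39 under mono-IL10 against 91.8 ± 1.78, adjusted p = 0.0166 and 0.0341). The call under mono-IL10 was lost under 9 alternatives, with the log2 change between −0.19 and −0.16, and so was that of the other gene called there, the nucleotide receptor gene P2ry6, under 14 (−0.60 to −0.46). Of 15 macrophage genes, 4, 2 and 5 were called in these cells, whose summed macrophage markers ranged from 133 to 486 CPM over mice, and their source was not tested. Among those calls, Ccr2 between mono-IL10 and PBS was lost under 11 alternatives (−1.46 to −1.10) and Vcan between IL10/2-Trikine and PBS under 4 (−0.37 to −0.34).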

How the data were processed

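Cells of 5 hashtagged mice per treatment were sequenced as 3 pooled GEM-X 5′ libraries, and the deposited matrices hold raw UMI counts per gene and barcode that the authors made with Cell Ranger 9.0.1 at default settings on GRCm39 and filtered to called cells. Per the submitters' processing notes, Seurat 5.1.0 and DESeq2 1.46.0 were used downstream. The deposited annotation covers T and NK cells only. It was used for the background and to check hashtag calls (97.1% to 98.6% of cells in agreement, 0 with a different mouse), and 7858 of its rows, of another group, were not used.

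Barcodes needed 1000 genes or more and no more than 10% of UMIs from mitochondria. Hashtags were called with HTODemux of Seurat 5.3.0 (quantile 0.99), and barcodes with more than 1 hashtag were left out as doublets. Doublets within a mouse were not called. K-means on 40 principal components of 2000 variable genes (scikit-learn 1.9.0) gave 60 clusters, named by fixed markers. Clusters whose markers were mixed, or too low for any class, stayed unnamed. Mouse values sum raw counts of a class with at least 20 cells of that mouse and are given as CPM, the UMIs of a gene in 1000000 gene UMIs. Macrophage sums per mouse held 1157009 to 15689470 UMIs.

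Summed counts of all 15 mice were fitted with edgeR 4.0.16 (TMM, filterByExpr, glmQLFit, glmQLFTest) with treatment as the term, in R 4.3.3. Adjusted p-values are Benjamini-Hochberg over all genes tested, at a threshold of 0.05, and the fit was tested on simulated data first. The p-values measure the spread between mice within a library and cannot tell treatment from library. Alternatives were DESeq2 1.42.0, other size factors, no filter on low counts, at least 2000 genes, 40 clusters from 30 components, thinning to 3000 UMIs, leaving out each mouse, cells with tumor UMIs or the hashtag requirement, and, added after seeing the data, thinning to 1500 UMIs.

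Gja1 and the gene lists were chosen with earlier results of these data known. Named genes were Gja1, connexins and pannexins with counts, the 5 most alike profiles, the 5 highest and 5 lowest ratios between Gja1-positive and Gja1-negative macrophages among genes of 1 direction in all 15 mice, and up to 10 called list genes per comparison by smallest p. Other names were chosen after their values were seen. Some genes that this rule names are not reported here.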

Additional observations from a re-analysis of the deposited data

Results flagged for a closer look

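Of 87 groups of 4 or 5 mice examined, 7 held a mouse that stood apart from the others by Dixon's criterion, which chance alone meets in about 5% of groups. PBS mouse 3 stood high for Gja1 in Cd163-positive macrophages (114 CPM) and in cluster 16, led by Cd163 (154 CPM). Mono-IL10 mouse 5 stood high in Cx3cr1-positive macrophages (129 CPM), mono-IL10 mouse 3 low in cluster 2 (139.6 CPM) and mono-IL10 mouse 4 high in cluster 59 (36.0 CPM). PBS mouse 2 stood low in cluster 20 (5.48 CPM) and PBS mouse 1 high in cluster 24 (9.25 CPM).

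Cells of clusters with mixed markers, which the comparisons left unnamed, held 95.9 CPM of Gja1 under mono-IL10 and 70.6 CPM under IL10/2-Trikine, against 42.0 CPM in PBS. A UMI was present in 41.9%, 26.9% and 19.5% of them, at median depths of 10854.5, 5157.5 and 8512 UMIs, and in 19.3%, 16.9% and 7.02% when thinned to 3000 UMIs. These cells held 18.1%, 18.0% and 13.1% of all Gja1 UMIs in the clustered cells of their libraries.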

How the results depend on the processing

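No paired analysis was possible because the hashtag numbers name different mice in each library and the labels give no shared replicate. Of the alternatives tried for Gja1 ratios and for counts of called genes, 492 values stayed near the reported one and 39 moved. A ratio counted as near when its log2 value moved by less than the spread between mice. A small difference could therefore change direction and still count as near, as Cx3cr1 in PBS did without mouse 5. Among 62 results on named genes 1174 kept their call, 95 lost it and 0 reversed. In macrophages, no alternative changed the side of either treatment relative to PBS. The log2 ratio of mono-IL10 to PBS in dendritic cell-like cells was 3.24 with 40 clusters (2.27 as reported). With 40 clusters that class lacked a cluster led by Ccl17 and Cd209a, so its values describe a different set of cells. Thinned to 1500 UMIs, mono-IL10 to PBS in fibroblast-like cells was 0.63 (0.25) and IL10/2-Trikine to PBS in endothelial-like cells 0.31 (0.01). Under IL10/2-Trikine, macrophages with at least 2000 genes gave log2 ratios of 0.94 for Cd163 (1.63), 0.0049 for Cx3cr1 (−0.53) and −0.96 for Arg1 (−0.08), and thinning to 3000 UMIs gave 1.69 for Folr2 (1.13) and 0.55 for Arg1. Of 5961 IL10/2-Trikine macrophages, 3409 had fewer than 3000 UMIs. Called genes in macrophages between IL10/2-Trikine and mono-IL10 numbered 3059 at 2000 genes (2024), and 1296 to 2052 with 1 mouse left out, the lowest without IL10/2-Trikine mouse 1. In dendritic cell-like cells, IL10/2-Trikine against PBS (75 genes) gave 16 with 40 clusters, 133 by DESeq2, 258 without a filter and 27 to 85 with 1 mouse left out: 37, 36, 27 and 32 without PBS mouse 1, 2, 4 or 5, and 34, 33, 49, 49 and 48 without IL10/2-Trikine mouse 1, 2, 3, 4 or 5. Mono-IL10 against PBS (195) gave 22, 406 without a filter, and 105 to 214: 105 and 126 without PBS mouse 1 or 2 and 116 without mono-IL10 mouse 2. IL10/2-Trikine against mono-IL10 (75) gave 0 with 40 clusters by edgeR, 162 at 2000 genes, 183 by DESeq2, 419 without a filter, and 27 to 97: 27 and 29 without IL10/2-Trikine mouse 1 or 2 and 33 without mono-IL10 mouse 2. In tumor cells, mono-IL10 against PBS (1069) gave 495 to 1416: 605, 495 and 694 without PBS mouse 1, 4 or 5 and 656 and 588 without mono-IL10 mouse 2 or 3. DESeq2 called 1493 there. The causes were not tested.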

Other observations

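Regulatory T cell-like cells held Gja1 in the treated libraries. A UMI was found in 1 of 150 such cells in PBS (0.667%), 23 of 126 under mono-IL10 (18.3%) and 12 of 113 under IL10/2-Trikine (10.6%), or 1.19, 56.8 and 37.7 CPM. Their summed C1q genes, which mark macrophages, stood at 1303, 1939 and 2025 CPM. At the macrophages' Gja1-to-C1q ratio those levels would come with 2.25, 32.0 and 21.8 CPM of Gja1, which left 24.8 CPM under mono-IL10 and 15.9 CPM under IL10/2-Trikine above them. In all T and NK cells of the deposited annotation, a Gja1 UMI was found in only 14 of 843 cells under mono-IL10 and 4 of 725 under IL10/2-Trikine. Some positive cells of this class were thus not among the annotated T and NK cells. Whether the regulatory T cell-like cells themselves made the part above the C1q ratio was not tested. Cells of this class with a Gja1 UMI were deeper than those without. Their medians were 8799 against 3091 UMIs under mono-IL10 and 4975 against 3159 under IL10/2-Trikine, and doublets within a mouse were not called. Of the 43 Gja1 UMIs under mono-IL10, 19 came from mouse 2.

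T cell-like cells, by contrast, held a Gja1 UMI in 0 of 244 cells in PBS, which allows a share of up to 1.23%, in 10 of 599 under mono-IL10 and in 0 of 49 under IL10/2-Trikine, which allows up to 6.12%. These limits, 3 cells of the total, are for cells with a UMI at median depths of 2489 and 2380 UMIs. Neutrophil-like cells held it in 2 of 350, 10 of 605 and 2 of 32 cells.

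Among macrophage genes beyond the 4 of the co-detection plot, Gja1 was lower in cells with a Ccr2 UMI in every mouse (ratios 0.472 in PBS, 0.757 under mono-IL10 and 0.529 under IL10/2-Trikine) and lower in cells with Mgl2 in every mouse (0.712, 0.419 and 0.604). Thinned to 3000 UMIs, Ccr2 gave ratios of 0.258, 0.925 and 0.758 and was higher in 3 of 5 mice under mono-IL10 and in 1 of 5 under IL10/2-Trikine, and Mgl2 gave 0.656, 0.497 and 0.433, higher in 1 of 5 mice in PBS. The other monocyte genes gave no such pattern, with unthinned ratios for Ly6c2 of 1.20 (higher in 2 of 5 mice), 0.803 (1 of 3) and 1.52 (2 of 3) and for Vcan of 0.903 (3 of 5), 0.848 (1 of 5) and 0.433 (0 of 4). Cells with Mrc1 held more than cells without it under mono-IL10 (126 against 33.8 CPM, 5 of 5 mice) and IL10/2-Trikine (84.0 against 13.9 CPM, 4 of 4 mice), and in PBS in 4 of 5 (11.6 against 7.16 CPM), with PBS mouse 3 the other way (17.5 against 22.0 CPM). Thinned to 3000 UMIs, Mrc1 gave ratios of 2.91 in PBS and 4.88 under mono-IL10, each higher in 5 of 5 mice. Only 1 IL10/2-Trikine mouse had enough cells then. These genes were examined with the same cells and were not tested.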
